A study of Mus musculus with 6 samples.

Results

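Ifit1, Ifit2, Ifit3, Mx1, Mx2, Rsad2, Rtp4, Xaf1, Ifi35 and Ifi44 are interferon-inducible genes whose products act against viruses or regulate that response. These 10 genes were chosen by symbol from the 23608 rows of the count table, all 10 were present, and 8 had enough counts to be tested. They were measured by bulk RNA sequencing in mouse leukaemia cells transformed by AE9a, a shortened AML1-ETO fusion that was delivered by retrovirus together with GFP. In both groups 1 of the Usp18 alleles of these cells was floxed, and the cells held a Cre recombinase that tamoxifen activates and a broadly active promoter drives, and they were transplanted into recipient mice and allowed to establish disease. Recipients then received oil, which leaves the genotype Usp18+/f, or tamoxifen, which is meant to give Usp18+/Δ, and GFP+ Lin- c-Kit+ splenocytes were sorted 3 days after the first injection, with 3 libraries described as biological replicates in each of the 2 groups. The comparison asks how these antiviral transcripts differ after 1 copy of Usp18 is targeted. Both groups were Cre-bearing, so the Cre transgene itself does not separate them, but tamoxifen treatment, Cre activation and Usp18 deletion cannot be told apart between them. Transcript levels in a sorted population also cannot separate a change in the number of cells that express a gene from a change in its RNA per cell.

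Type I interferons bind the receptor formed by IFNAR1 and IFNAR2, and the kinases JAK1 and TYK2 then pass the signal on by phosphorylation. The complex ISGF3, which holds STAT2 and IRF9, binds interferon-stimulated response elements in the promoters of antiviral genes. USP18 is itself induced by interferon and restrains the receptor, so that it limits the same pathway that produces it. Ifit proteins bind viral RNA or components of translation, Mx proteins are dynamin-like GTPases, and Rsad2 encodes viperin, a radical SAM enzyme that makes an antiviral nucleotide. Rtp4 encodes a receptor transporter protein that is induced by interferon, Xaf1 encodes a protein that binds the apoptosis inhibitor XIAP, Ifi35 encodes a protein that binds Nmi, and Ifi44 encodes an interferon-induced cytoplasmic protein. In many laboratory strains of mice the Mx genes carry defects, and GENCODE classes the Mx2 locus as a polymorphic pseudogene, so the values below are of transcripts and not of protein.

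Promoter sequences are shown for Ifit1, Ifit3 and Rsad2, the members whose windows held the response element core as first searched, and for Ifit2 as their neighbour in the Ifit cluster without a match. They were chosen after the values were seen, and any relation between matches and values was not tested. The response element core was searched as GAAANNGAAA on both strands, which reads TTTCNNTTTC on the other strand, in RefSeq windows from 250 bases before to 50 bases after each gene's start. Of 32851 such windows in the mouse genome, 3.44% held at least 1 match and 0.225% held 2 or more. Windows were at hand for 7 of the 10 members, and Mx1, Mx2 and Rtp4 had none. Ifit1 held 2 matches, which began 104 and 85 bases before the start, and Ifit3 held 2, which began 156 and 122 bases before the start. Rsad2 held 1 match, 120 bases before the start. Neither of 2 Ifit2 windows held a match, nor did those of Xaf1, Ifi35 and Ifi44. A variant with 1 base between the repeats, GAAANGAAA, was found in 3.17% of all windows, and it occurred at position 11 after the start in Xaf1, at position 14 after the start in Ifi35 and 48 bases before the start in Ifi44. The stretches below run 5′ to 3′ on the strand of the gene in build GRCm38.p6, in lower case with matches to the first motif in capitals. They cover chr19:34640777-34640888 (+) for Ifit1, chr19:34583365-34583528 (+) for Ifit3, chr12:26456453-26456580 (-) for Rsad2 and chr19:34550554-34550693 (+) for Ifit2, and each ends just before the RefSeq start.
Ifit1: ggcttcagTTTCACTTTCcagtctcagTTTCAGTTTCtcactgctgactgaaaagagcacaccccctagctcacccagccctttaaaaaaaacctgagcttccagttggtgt
Ifit3: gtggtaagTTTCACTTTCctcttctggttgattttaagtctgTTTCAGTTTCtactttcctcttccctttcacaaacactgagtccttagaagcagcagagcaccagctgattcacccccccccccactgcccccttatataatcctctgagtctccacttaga
Rsad2: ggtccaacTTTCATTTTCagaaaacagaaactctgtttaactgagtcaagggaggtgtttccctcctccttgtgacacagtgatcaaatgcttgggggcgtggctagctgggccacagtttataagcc
Ifit2: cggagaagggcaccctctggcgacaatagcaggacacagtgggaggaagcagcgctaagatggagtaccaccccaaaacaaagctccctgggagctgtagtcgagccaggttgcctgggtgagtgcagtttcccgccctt
In Ifit1 and Ifit3 the same pair of 10-base matches, TTTCACTTTC and then TTTCAGTTTC, stood in the same order. These letter matches describe the sequences and do not show that a factor was bound there.

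Library totals ran from 17118964 to 20741399 counts, so that 3 counts equalled 0.145 to 0.177 CPM, the usual scale of counts relative to library size. Levels below are in these units after TMM normalization of the tested genes, and differences are edgeR log2 fold changes of the tamoxifen-labelled over the oil libraries. Usp18, the targeted gene (chr6:121245906-121270917, +), stood at 9.12, 10.95 and 11.19 CPM in oil libraries 1, 3 and 4 and at 15.1, 28.0 and 19.4 CPM in tamoxifen-labelled libraries 1, 2 and 4. Its level was therefore higher, not lower, in every library labelled tamoxifen, and the log2 fold change was 0.998 with an SE of 0.229 (adjusted p 0.0739). Without tamoxifen 4 this adjusted p was 0.00654. The count is over the whole gene and does not separate deleted from retained exons, so it does not check the deletion. Kit ranged from 439 to 782 CPM and Myb from 378 to 439 CPM over the 6 libraries. Of the granule genes listed, Elane was at 0 and Mpo at most 0.207 CPM, whereas Ctsg and Prtn3 were detected in every library. Ctsg ranged from 0.929 to 1.47 CPM in oil and from 2.39 to 5.64 CPM in the tamoxifen-labelled libraries. Its log2 fold change was 1.74 with an adjusted p of 0.0746. Prtn3 had 6 to 17 counts per library, with a log2 fold change of 0.857 and an adjusted p of 0.310.

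Of the members, Mx2 was the gene that rose by the main test. It is at chr16:97535308-97560900 (+). It reached the count filter through the tamoxifen-labelled libraries, as Mx1 and Rsad2 below did, so their tests are descriptions only. Its counts were 0, 4 and 2 in oil libraries 1, 3 and 4 and 22, 58.5 and 32.5 in tamoxifen-labelled libraries 1, 2 and 4, or 0, 0.194 and 0.103 CPM against 1.21, 3.45 and 1.80 CPM. The groups did not overlap, and the lowest tamoxifen-labelled value was 6.23 times the highest oil value. The fitted difference was 4.28 ± 0.74 (SE, as for all fitted differences below) on the log2 scale, a 19.4-fold difference with a 95% interval from 5.996 to 63.1, and the adjusted p was 0.0399. This call depended on all of the libraries except tamoxifen 4: without oil 1, oil 3 or oil 4 the adjusted p was 0.187, 0.156 or 0.177, without tamoxifen 1 or tamoxifen 2 it was 0.0980 or 0.0964, and without tamoxifen 4 it was 0.00197, while the log2 fold change stayed between 3.77 and 5.14. Without tamoxifen 4, 19.2% of all tested genes were called higher and 17.1% lower. The calls of Cd34, Ifitm2, Slfn5 and Socs1, given below, were lost in the same fits, so this loss was not particular to Mx2.

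**Figure D1:**
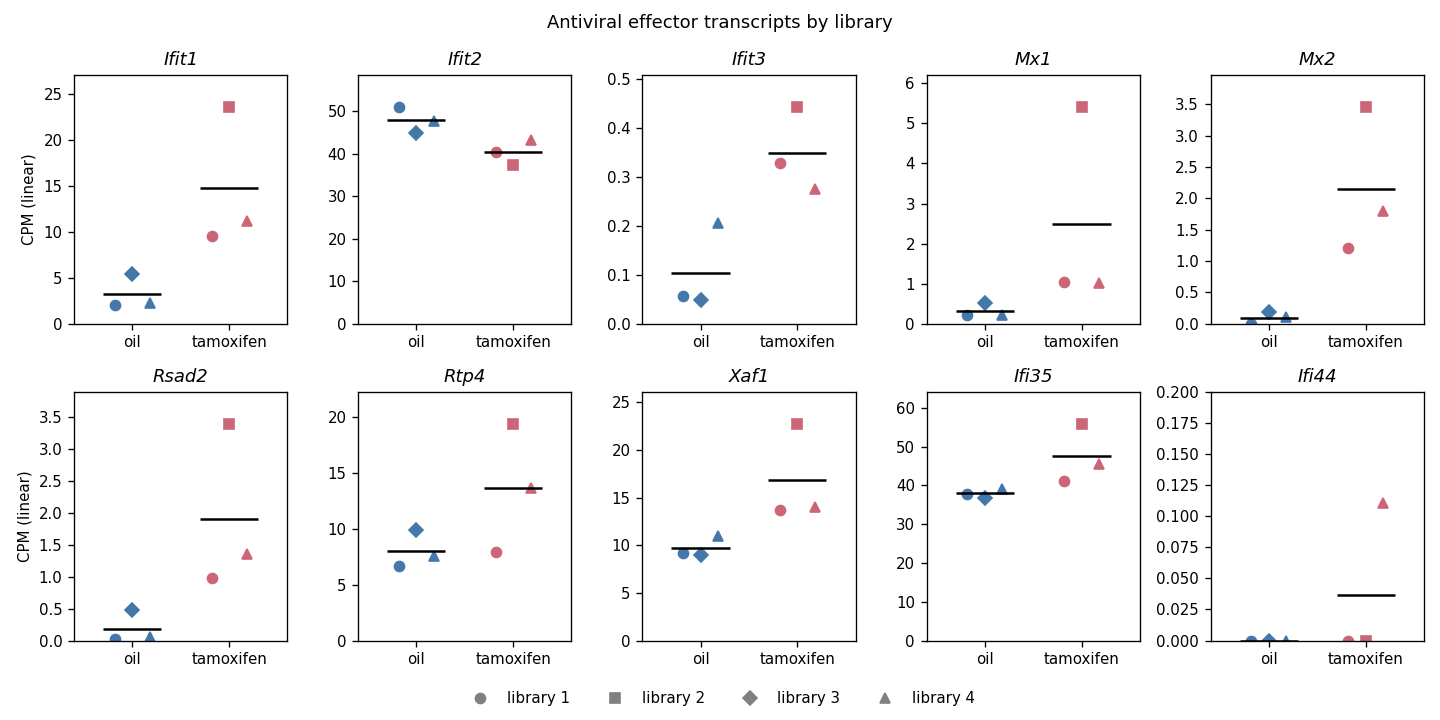
Level of each of the 10 members in CPM on a linear axis that starts at 0, with 3 oil libraries in blue, 3 tamoxifen-labelled libraries in red and the group mean as a black line. Marker shapes give the library numbers of the count table, which do not pair samples between groups. Tamoxifen 2 is the highest library for Ifit1, Ifit3, Mx1, Mx2, Rsad2, Rtp4, Xaf1 and Ifi35, while Ifit2 is lower in every tamoxifen-labelled library than in any oil library.

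Mx1, the paralog of Mx2 (chr16:97447035-97462907, -), had 4, 10.5 and 4 counts in the oil libraries and 19, 91.5 and 18.5 counts in the tamoxifen-labelled libraries. In CPM these were 0.225, 0.509 and 0.206 against 1.04, 5.40 and 1.02. Every tamoxifen-labelled library was above every oil library, but tamoxifen 2 was 5.29 times the lowest of its own group. The log2 fold change was 2.98 ± 0.81 (95% interval 1.10 to 4.85) with an adjusted p of 0.108, which does not pass 0.05. Without tamoxifen 2 it was 1.70 (adjusted p 0.277), and without tamoxifen 4 it was 3.35 (adjusted p 0.00529). The Mx transcripts share little sequence: 0.929% of the 100-base windows of Mx1 and 1.13% of those of Mx2 occur in the other gene.

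Rsad2 (chr12:26442746-26456452, -) was nearly silent in oil 1 and oil 4. Its counts were 0.5, 10 and 1 in oil and 18, 57.5 and 24.5 in the tamoxifen-labelled libraries, which is 0.0281, 0.485 and 0.0514 CPM against 0.988, 3.39 and 1.35 CPM. Oil 3 held 17.2 times the level of the lowest oil library and was still below the lowest tamoxifen-labelled library. The log2 fold change was 3.30 ± 0.91 (95% interval 1.21 to 5.39) and the adjusted p was 0.109. Single libraries moved it: without oil 3 the log2 fold change was 5.82 (adjusted p 0.157), without tamoxifen 2 it was 2.59 (adjusted p 0.336), and without tamoxifen 4 it was 3.50 (adjusted p 0.0124). Cmpk2, the neighbour of Rsad2 and itself interferon-inducible, had 1, 6 and 0 counts in oil and 5, 5 and 3 counts in the tamoxifen-labelled libraries, so its groups overlapped at a depth too low to test.

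The Ifit genes, which lie side by side on chromosome 19, differed from each other in level and in direction. Ifit1 (chr19:34640871-34650009, +) stood at 2.08, 5.38 and 2.21 CPM in oil and at 9.52, 23.6 and 11.2 CPM in the tamoxifen-labelled libraries, from 37, 111 and 43 against 173.5, 399 and 203 counts. The groups did not overlap, oil 3 was again the highest oil library, and the log2 fold change was 2.18 ± 0.47 (95% interval 1.11 to 3.26), a fold of 4.54, with an adjusted p of 0.0609. Leaving out 1 library gave Ifit1 log2 fold changes from 1.68, without tamoxifen 2, to 2.77, without oil 3, and the adjusted p was 0.00277 without tamoxifen 4 and reached 0.269 without oil 1.

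Ifit2 (chr19:34550694-34576419, +) went the other way. It stood at 50.9, 44.9 and 47.6 CPM in oil and at 40.4, 37.4 and 43.1 CPM in the tamoxifen-labelled libraries, with means of 47.8 ± 2.99 and 40.3 ± 2.89 CPM (SD, n = 3). Every tamoxifen-labelled library was below every oil library by a small margin. The log2 fold change was -0.24 ± 0.10 (95% interval -0.47 to -0.02) with an adjusted p of 0.227, without tamoxifen 4 it was -0.29 with an adjusted p of 0.0364, and without tamoxifen 2 it was -0.19 with an adjusted p of 0.505. Its 633 to 926.5 counts per library were the most among the Ifit genes, and no 100-base window of its transcripts occurs in another gene.

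Ifit3 (chr19:34583531-34588731, +) did not reach the count filter, with 1, 1 and 4 counts in oil and 6, 7.5 and 5 in the tamoxifen-labelled libraries. These are 0.0563, 0.0485 and 0.206 CPM against 0.329, 0.443 and 0.276 CPM, and the groups did not overlap. Summed over libraries after rounding, 6 counts stood against 19, a ratio of 3.44 for equal depth with a 95% interval from 1.32 to 10.5 that covers counting error only. In a fit without the filter its log2 fold change was 1.72 with an adjusted p of 0.328. Ifit3 shares 31.7% of its 100-base windows with Ifit3b, so a counter can lose or split its reads, and Ifit3b itself had 0 counts in all 6 libraries. The other relatives in the cluster were as low: Ifit1bl1 had 1, 3 and 6 counts in oil and 1, 7.5 and 5 in the tamoxifen-labelled libraries, and Ifit1bl2 had 0, 1 and 0 against 5, 3 and 1. For Ifit1bl2 the pooled ratio was 9.77, with a counting interval from 1.35 to 428. Ifit1 shares 3.29% of its windows with Ifit1bl2.

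Per length of transcript, Ifit2 stood above Ifit1 in both groups, with a smaller gap in the tamoxifen-labelled group. Mean levels in CPM per kilobase of exon were 12.2 for Ifit2 and 1.21 for Ifit1 in oil, against 10.3 for Ifit2 and 5.56 for Ifit1 in the tamoxifen-labelled group. In oil, Ifit1 was above 15.7% of the tested genes by this measure and Ifit2 above 59.5%, and in the tamoxifen-labelled group they were above 37.2% and 54.4%.

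Ifi35, Xaf1 and Rtp4 were expressed in every library and differed less between the groups. Ifi35 (chr11:101448407-101458698, +) stood at 37.8, 36.8 and 39.1 CPM in oil and at 41.2, 55.8 and 45.6 CPM in the tamoxifen-labelled libraries. The groups were separated by a factor of 1.05, and the log2 fold change was 0.33 ± 0.13 with an adjusted p of 0.212. Without tamoxifen 2 it was 0.20 (adjusted p 0.490), and without tamoxifen 4 it was 0.35 (adjusted p 0.0487). An antisense gene, Gm11626, shares 290 exon bases with Ifi35, and the strand setting of the counts was not given in the sources used here. Nmi, the binding partner of Ifi35, had 31.3, 28.4 and 33.7 CPM in oil and 33.1, 37.3 and 32.6 CPM in the tamoxifen-labelled libraries, with a log2 fold change of 0.14 and an adjusted p of 0.475.

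Xaf1 (chr11:72301629-72313733, +) stood at 9.15, 8.99 and 11.01 CPM in oil and at 13.7, 22.7 and 14.0 CPM in the tamoxifen-labelled libraries. The groups did not overlap, and the log2 fold change of 0.79 ± 0.22 (95% interval 0.28 to 1.30) had an adjusted p of 0.117. Without tamoxifen 2 it was 0.52 (adjusted p 0.277), and without tamoxifen 4 it was 0.90 (adjusted p 0.00844). Rtp4 (chr16:23520291-23614222, +) stood at 6.67, 9.89 and 7.59 CPM in oil and at 7.96, 19.4 and 13.6 CPM in the tamoxifen-labelled libraries, and here the groups overlapped because tamoxifen 1 was below oil 3. Its log2 fold change was 0.76 ± 0.31 with an adjusted p of 0.233, without tamoxifen 2 it was 0.42, and it passed in none of 14 alternative analyses. A transcript of unknown coding status, Gm45338, shares 296 exon bases with Rtp4 on the same strand. Its relative Rtp3 had 1 count in oil 4 and 0 in the other libraries.

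Ifi44 (chr3:151730922-151749960, -) was at the edge of detection, with 2 counts in tamoxifen 4 and 0 in the other libraries. A count of 0 allows up to 3 counts, and no fold change is given because both groups were at or under that limit. Its relative Ifi44l had 0 counts in all 6 libraries.

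In all, Mx2 was called higher by edgeR and no member was called lower, where 1.75% of the 11614 tested genes were called higher and 0.267% lower. At an unadjusted p under 0.05, 7 tested members were higher and 1, Ifit2, was lower, against 12.6% and 7.99% of all tested genes. In 6 of the 8 tested members every tamoxifen-labelled library was above every oil library, and in 1 every one was below, where 13.3% and 11.8% of the tested genes did so. Mx1, Mx2 and Rsad2 reached the count filter through the tamoxifen-labelled libraries, so these counts are descriptions of the tested members only. The median log2 fold change was 1.49 over the 8 tested members and 0.77 over the 5 with a mean of at least 50 counts, beside 0.00 over all tested genes. DESeq2's Wald test called 5 members higher (Ifit1, Mx1, Mx2, Rsad2 and Xaf1), with 6.14% of all genes called higher, and limma-voom called 0, with an adjusted p of 0.0545 for Mx2. Without tamoxifen 4, edgeR called Ifit1, Mx1, Mx2, Rsad2, Xaf1 and Ifi35 higher and Ifit2 lower, but 19.2% of 11851 genes were then called higher and 17.1% lower.

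**Figure D2:**
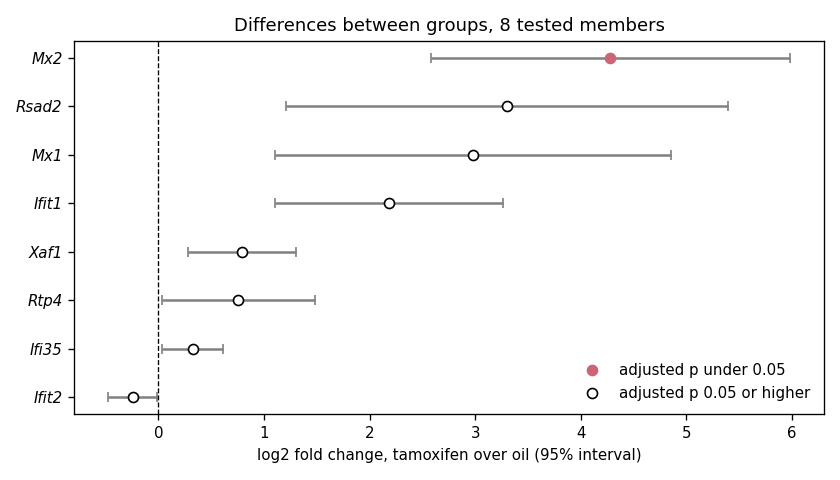
edgeR log2 fold change of the tamoxifen-labelled over the oil libraries for the 8 tested members, with 95% intervals and a dashed line at 0. Mx2, the filled point, is at 4.28 and passes an adjusted p of 0.05, the open points do not, and Ifit2 at -0.24 is the member below 0.

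Among the 8 tested members, a lower level in oil went with a larger fitted difference, except that Ifi35, the highest in oil, had a higher value than Ifit2. Mx2, Rsad2 and Mx1 reached the count filter through the tamoxifen-labelled libraries, and members low in both groups were not tested. Untested Ifit3 did not keep the order: it had 0.0593 CPM per kilobase in oil, and its log2 fold change without the filter was 1.72. Untested Ifi44 had 0 counts in oil. In oil, Mx2, Rsad2 and Mx1 had 0.0274, 0.0434 and 0.0828 CPM per kilobase, each above at most 1.05% of the tested genes, and their log2 fold changes were 4.28, 3.30 and 2.98. Ifit1, at 1.21 CPM per kilobase, had 2.18. Xaf1 and Rtp4, at 2.07 and 3.78 CPM per kilobase, had 0.79 and 0.76, and Ifit2 and Ifi35, at 12.2 and 22.0, had -0.24 and 0.33. In the tamoxifen-labelled group Mx1, Mx2 and Rsad2 still stood at 0.658, 0.596 and 0.441 CPM per kilobase, where the median tested gene was at 8.83. The 95% intervals of Mx2, Rsad2, Mx1 and Ifit1 overlap one another, those of Xaf1 and Rtp4 also reach into those of Ifit1, Mx1 and Rsad2, and the interval of Ifit2 overlaps none of the others. Genes this low in oil can hardly show a decrease, and a relation between a baseline and a difference that is computed from it is partly fixed by arithmetic.

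The libraries of a group differed in how far the members moved. Tamoxifen 2 was the highest tamoxifen-labelled library for all 7 tested members with a positive fold change and the lowest for Ifit2, where 33.4% of all tested genes were highest in it. The median shift of the 8 tested members from the oil mean was 1.02, 2.12 and 1.12 on the log2 scale in tamoxifen 1, 2 and 4, and that of all tested genes was at most 0.01 in size. Among the oil libraries, oil 3 was the highest for 5 of these 7 members (Ifit1, Mx1, Mx2, Rsad2 and Rtp4), beside 34.3% of all genes, and its median shift was 0.45 against -0.25 in oil 1 and -0.03 in oil 4. Pairs of the 7 members had Pearson correlations of log2 CPM between 0.80 and 0.99 over the 6 libraries, with Ifit1 and Rsad2 the closest pair, and the 7 pairs with Ifit2 lay between -0.96 and -0.78. These correlations describe 6 points that share 2 treatment groups and the same libraries.

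**Figure D3:**
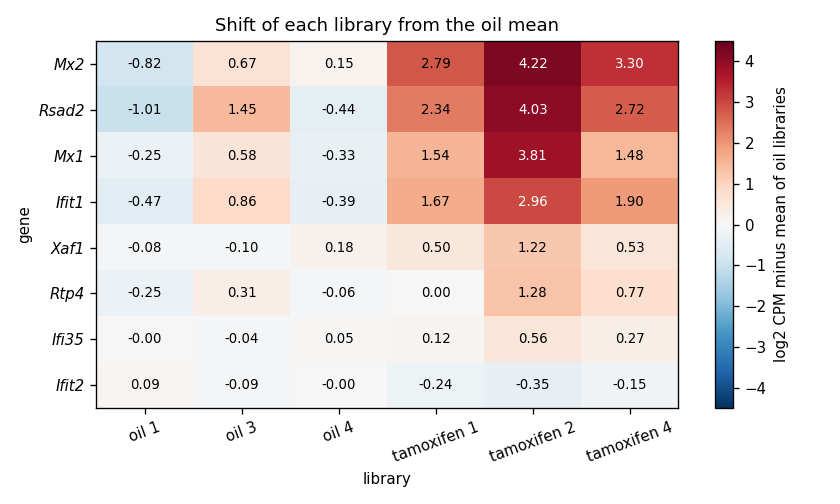
Shift of each library from the mean of the oil libraries, in log2 CPM with a prior count of 2, for the 8 tested members ordered by fold change. Tamoxifen 2 holds the darkest cell of the tamoxifen-labelled columns in each positive row, and Ifit2 in the bottom row runs from 0.09 in oil 1 to -0.35 in tamoxifen 2.

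Genes outside the members with the most similar pattern were sought by the correlation of log2 CPM with the mean z score of the tested members over the 6 libraries, among 11115 genes. The 5 closest were Irgm1, an immunity-related GTPase, Dhx58, an RNA helicase of the RIG-I family, Oasl1, Usp18 and Hsh2d, a haematopoietic SH2 domain protein, with r from 0.989 to 0.994. Dhx58 ran from 15.7, 19.0 and 16.2 CPM in oil to 23.4, 48.8 and 34.1 CPM in the tamoxifen-labelled libraries, a log2 fold change of 1.06 with an adjusted p of 0.0763. Irgm1 ran from 70.5, 75.2 and 70.4 CPM to 89.6, 125 and 102 CPM, a log2 fold change of 0.55 with an adjusted p of 0.0744. Oasl1 and Hsh2d had log2 fold changes of 0.71 and 0.72, with adjusted p of 0.0885 and 0.0905. None of the 5 passed the adjusted threshold. All were highest in tamoxifen 2, which follows largely from choosing them by their likeness to the members.

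The wider response was read from a list of 60 further interferon-stimulated genes, of which 59 were in the table and 52 were tested. Its median log2 fold change was 0.40, 51 of the 52 were positive, 2 were called higher and none lower, beside 1.75% and 0.267% of all tested genes. At an unadjusted p under 0.05, 33 were higher and 0 lower, beside 12.6% and 7.99%. Ifitm2, a membrane protein that restricts virus entry, rose from 75.1, 77.4 and 76.2 CPM to 108, 124 and 103 CPM, by 0.55 on the log2 scale with an adjusted p of 0.0398. Slfn5, a Schlafen family gene, rose from 2.48, 3.30 and 1.90 CPM to 9.27, 19.4 and 6.41 CPM, by 2.19 with an adjusted p of 0.0470. Ddx60, a helicase, ran from 0.253, 0.436 and 0.695 CPM to 1.62, 4.10 and 2.27 CPM, with a log2 fold change of 2.51 and an adjusted p of 0.0556. With 4.5, 9 and 13.5 counts in oil, Ddx60 reached the count filter through the tamoxifen-labelled libraries. Its values and its part in the list's counts are therefore a description only. Slfn8 and Irf7 followed, with log2 fold changes of 1.49 and 1.48 and adjusted p of 0.180 and 0.114. Without tamoxifen 4 the list had 33 genes called higher, where 19.2% of all genes were called higher and 17.1% lower, and without any 1 of the other 5 libraries it had 0. The median shift of the list from the oil mean was 0.23, 0.68 and 0.35 in tamoxifen 1, 2 and 4, and tamoxifen 2 was again the highest.

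Upstream of the members, the ligands were at or near 0. Of 12 interferon genes listed, 9 had 0 counts in all 6 libraries, Ifne and Ifng reached 2 counts and Ifnz reached 5, each in an oil library, and none could be tested. Over all tested genes edgeR called 1.75% higher and 0.267% lower, and DESeq2 called 6.14% higher. At an unadjusted p under 0.05 by edgeR, 12.6% were higher and 7.99% lower. The 6 receptor genes were tested and 0 were called, with 0 at an unadjusted p under 0.05 by edgeR and 0 called by DESeq2, and their median log2 fold change was 0.08. For lists of 6 or 8 genes, 0 called is near the shares over all genes and sets neither list apart. Of the 8 kinases and factors 0 were called by edgeR or DESeq2 and 4 were higher at an unadjusted p under 0.05. Among them Stat2 and Irf9, which belong to ISGF3, had log2 fold changes of 0.40 and 0.38 with adjusted p of 0.205 and 0.200, and Irf7, the factor that drives interferon genes, had 1.48. Of the 4 tested inhibitors Socs1, which blocks JAK kinases, rose from 42.3, 35.7 and 41.7 CPM to 86.9, 117 and 60.2 CPM, by 1.14 with an adjusted p of 0.0438. The calls of Ifitm2, Slfn5 and Socs1 held without tamoxifen 4 and were lost without any 1 of the other libraries, where the adjusted p reached 0.205, 0.223 and 0.209 at most.

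**Figure D4:**
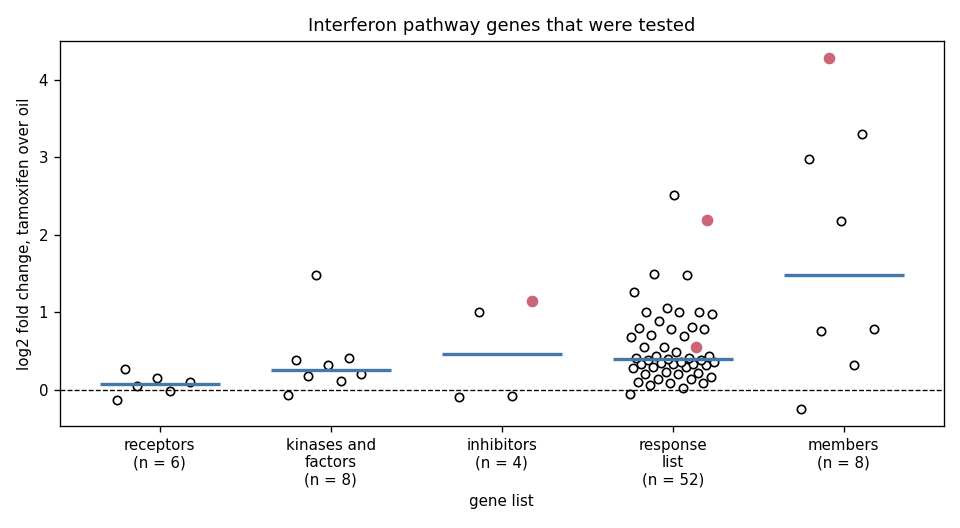
edgeR log2 fold change of the tamoxifen-labelled over the oil libraries for the tested genes of the interferon pathway, grouped by role, with filled points for an adjusted p under 0.05 and blue lines at the group medians. Receptors lie around 0.08, the response list around 0.40 and the 8 tested members around 1.49, and some genes, such as Stat2, Irf9, Irf7 and Usp18, stand in 2 groups.

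Markers of other cells and of the sorted cells' state moved with the members in part. Summed macrophage markers ran from 4.68 to 9.09 CPM in oil and from 7.43 to 16.4 CPM in the tamoxifen-labelled libraries, with 0 of 7 tested called and none of the 12 at 0 throughout. Over all tested genes 1.75% were called higher, so 0 of 7 is near that share. DESeq2 called 1 of the 7 higher, beside 6.14% of all genes. Vcam1 had a log2 fold change of 1.86 with an adjusted p of 0.0696, while C1qb and C1qc had -0.17 and -0.12. In all, 5 of the 7 were positive. Of 10 T and NK cell markers 7 were at 0 in all libraries (Cd3e, Cd3g, Cd8a, Ncr1, Klrb1c, Gzma and Prf1), and the sum, 1.13 to 2.57 CPM in oil and 7.65 to 56.4 CPM in the tamoxifen-labelled group, was nearly all Nkg7, which had an adjusted p of 0.0410. B cell and neutrophil markers summed to at most 0.878 and 0.472 CPM in any library, with Ms4a1, Pax5, Ly6g and S100a8 at 0. The plasmacytoid dendritic list, mostly Bst2 and Tcf4, ranged from 113 to 132 CPM in oil and from 107 to 141 CPM in the tamoxifen-labelled group, and its defining marker Siglech was at 0. Dendritic markers ranged from 3.65 to 5.60 CPM in oil and from 2.85 to 3.31 CPM, with Flt3 and Clec9a at 0. Erythroid markers ranged from 3783 to 5934 CPM in oil and from 3038 to 7371 CPM in the tamoxifen-labelled group. Mast cell markers ranged from 1074 to 1180 CPM in oil and from 1361 to 2626 CPM, highest in tamoxifen 2, and 2 of 7 were called higher, Tpsb2 at 4.16 and Fcer1a at 2.12, where 1.75% of all tested genes were. Most of the oil sum was Ms4a2, at 862 to 917 CPM in oil and 830 to 931 CPM in the tamoxifen-labelled libraries, with a log2 fold change of -0.04 and an adjusted p of 0.807. Mcpt4 had an adjusted p of 0.344, and its tamoxifen 1 and tamoxifen 4 values lay inside the oil range. Tpsb2 had 2, 6.5 and 5.5 counts in oil and 36.5, 151 and 44 in the tamoxifen-labelled libraries. It reached the count filter through the tamoxifen-labelled libraries, so the 2 mast cell calls are a description only. Among the progenitor markers Cd34 rose from 9.68, 8.41 and 11.7 CPM to 113, 134 and 41.8 CPM, with an adjusted p of 0.0232. The calls of Nkg7, Tpsb2, Fcer1a and Cd34 were lost in every fit that left out 1 library other than tamoxifen 4. The part of these cell differences in the members' values was not tested.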

How the data were processed

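RNA was measured in 6 libraries of sorted leukaemia cells, 3 per group. Values were deposited as estimated counts for each gene symbol, which the authors had not scaled between libraries; the submitters' processing notes name STAR, DESeq2 and the build mm10, and the counter, annotation and strand setting are not given in the sources used here. The smallest positive value was 0.5, and 25.9% to 27.3% of values per library were not whole, so the counts were rounded for testing, while CPM were computed from the deposited values. Sample titles give the numbers 1, 2 and 4 to oil and 1, 3 and 4 to tamoxifen, but the columns give 1, 3 and 4 to oil and 1, 2 and 4 to tamoxifen. Libraries are named by the columns, and oil 3 and tamoxifen 2 were tied to their group only. A spreadsheet had turned 26 symbols into dates.

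Groups were compared in R 4.3.3 with edgeR 4.0.16 (filterByExpr, TMM, quasi-likelihood F test, Benjamini-Hochberg over 11614 genes, threshold 0.05) on group alone. The adjusted p-values and fold changes in the text are from this fit unless DESeq2 1.42.0 or limma-voom 3.58.1 is named. The script was tested on simulated counts. Alternatives were other normalizations, filters and tools, a replicate block, unrounded counts (chosen after seeing the data) and leaving out each library. Coordinates and exon lengths came from GENCODE M21, promoters from RefSeq, both on GRCm38, the assembly also called mm10. Counting intervals are 95% exact intervals and cover counting error only. The members and lists were chosen with earlier results of these data known. Named were all members, their relatives, Usp18, listed genes with an adjusted p under 0.05 with up to 3 others per list by size of change, and the 5 genes most like the members; other listed pathway and marker genes were named after their values were seen. A few listed genes are not reported here.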

Additional observations from a re-analysis of the deposited data

How the results depend on the processing

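The count of tested members called higher was 1 in the edgeR fit and stayed at 1 with DESeq2 size factors, upper-quartile scaling or unrounded counts. It was 5 with DESeq2's Wald test, where 6.14% of all tested genes were called higher. It was 0 with limma-voom and 2 without a count filter (Ifit1 and Mx2). With a mean of at least 50 counts it was 0, and Mx1, Mx2 and Rsad2 were then not tested. It ranged from 0 to 6 when 1 library was left out, with 6 without tamoxifen 4, where 19.2% of all genes were called higher. Shares of all genes called under the other alternatives are not given, so their counts cannot be set against the whole table. With the replicate number as a block it was 3 (Ifit1, Mx2 and Rsad2), and the log2 fold changes of Rsad2, Xaf1 and Ifi35 were then 5.14, 0.47 and 0.17. The groups share only the numbers 1 and 4, and libraries with the number 1 deviated from their group means with a correlation of -0.13 and those with the number 4 with 0.06, which gives no pairing beyond the number itself. The members' median log2 fold change, 1.49, was 0.77 over the 5 members with a mean of at least 50 counts, 1.38 with the replicate block, and 1.10 to 1.85 with 1 library left out. The response list had 2 genes called higher, and 16 with DESeq2's Wald test, 0 with limma-voom, 9 without a count filter, 1 with a mean of at least 50 counts, 3 with the replicate block and 0 to 33 with 1 library left out. The same shares of all genes and the same limit apply to these counts. For single members, 90 values kept their direction and their side of the threshold, 13 newly passed it, 6 no longer passed, and none changed direction. The causes of these differences between settings were not tested. Depth limits Ifit3 and Ifi44, and 3 libraries per group limit the precision of the rest.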
